A study of Mus musculus with 6 samples.

Results

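The AP-1 family of transcription factors was examined in RNA-Seq counts of mouse CD4+ T cells. The 10 genes were taken by name as members of the family, with no threshold on their counts: *Jun*, *Junb*, *Jund*, *Fos*, *Fosb*, *Fosl1*, *Fosl2*, *Batf*, *Batf3* and *Atf3*, of 24223 genes in the count tables. Of these, 9 passed the filter on low counts and were tested. *Fosl1* did not.

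Naive cells were CD4+ T cells, negative for CD44, that were isolated with a kit from the pooled lymph nodes and spleens of C57BL/6 mice 1 to 2 months old. Th17 and Th1 cells were grown from such cells with antibodies to CD3 and CD28 and collected on the fifth day. Th17 cultures also received TGF-β, IL-6, IL-1β, IL-23 and antibodies to IL-4 and IFN-γ, and Th1 cultures received IL-12, IL-2 and an antibody to IL-4. No transgene or deletion was involved. There were 2 biological replicates of each cell type, 6 libraries in all, and no source used here says whether the replicates came from separate mice or cultures, so the p-values measure only the spread between these libraries.

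AP-1 is a dimer of leucine zipper (bZIP) proteins. Jun proteins pair with each other or with Fos proteins, and Fos proteins need a Jun partner. Batf and Batf3 also pair with Jun proteins and, in T cells, bind DNA together with Irf4 or Irf8. *Jun*, *Junb*, *Fos* and *Fosb* are immediate early genes, transcribed within minutes of signalling from the T cell receptor through MAP kinases and serum response factor, and their transcripts are short-lived. Batf is required for Th17 differentiation.

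The main pattern was a change in the levels of some family members relative to others. *Jun* was 6.40-fold higher in Th1 than in Naive and 25.4-fold higher than in Th17. *Fos* and *Fosb* fell to a few CPM or less in Th17. *Batf*, *Batf3* and *Atf3* were higher in both cultured cell types than in Naive. The call of *Batf* in Th1 did not hold with library size alone or in a fit of the 4 libraries compared. *Batf3* and *Atf3* had at most 17 and 4 counts in a Naive library. *Junb* and *Jund* were abundant everywhere, and neither was called by edgeR in the fit of all 6 libraries after the filter on low counts.

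Totals ranged from 17742158 to 69080017 counts a library, replicate 1 being the deeper by 3.38 to 3.77 times in each cell type. Levels are given as CPM, which are counts scaled to library size (edgeR's TMM). The limit of detection was set at 3 counts, equal to 0.0440 to 0.190 CPM depending on the library. The 4 T cell markers *Cd3d*, *Cd3e*, *Cd3g* and *Cd4* summed to between 1618 and 2416 CPM in every library. The 4 Th17 markers, among them *Il17a*, *Il17f* and *Il23r*, summed to 1405 and 1872 CPM in Th17 and to at most 5.94 CPM elsewhere, and the 4 Th1 markers (*Tbx21*, *Ifng*, *Il12rb2*, *Cxcr3*) to 775 and 763 CPM in Th1 and at most 93.9 CPM elsewhere. The 4 naive T cell markers, among them *Ccr7*, *Lef1* and *Il7r*, did not set Naive apart. By edgeR 0 of 4 were called in any comparison, with 0 or 1 of 4 at an unadjusted p under 0.05, and DESeq2 called 0 in either comparison with Naive. Erythroid markers summed to 504 and 87.1 CPM in the Naive replicates and to at most 1.58 CPM elsewhere, which came mostly from *Car1* with 463 and 85.8 CPM. The 2 listed globin genes were listed at 0 in every library.

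The promoters of *Jun*, *Fos*, *Fosb* and *Batf* are shown because these genes carry the contrasts below. *Jun* was highest in Th1, *Fos* and *Fosb* were lowest in Th17, and *Batf* was lowest in Naive. Each run is the 250 bases before the RefSeq start on GRCm38.p6 (mm10), written 5′ to 3′ on the gene's strand. Capitals mark the letters TGACG, the first 5 of the cyclic AMP response element (CRE), on either strand, or in *Jun* a match to TGACNTCA, a CRE with any base where N stands.
*Jun* promoter, chr4:95052223-95052472, - strand: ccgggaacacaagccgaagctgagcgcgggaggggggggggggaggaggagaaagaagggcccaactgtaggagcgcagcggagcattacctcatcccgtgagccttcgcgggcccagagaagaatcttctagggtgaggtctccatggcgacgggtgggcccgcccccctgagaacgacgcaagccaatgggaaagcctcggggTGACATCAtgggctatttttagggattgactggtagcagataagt
*Fos* promoter, chr12:85473640-85473889, + strand: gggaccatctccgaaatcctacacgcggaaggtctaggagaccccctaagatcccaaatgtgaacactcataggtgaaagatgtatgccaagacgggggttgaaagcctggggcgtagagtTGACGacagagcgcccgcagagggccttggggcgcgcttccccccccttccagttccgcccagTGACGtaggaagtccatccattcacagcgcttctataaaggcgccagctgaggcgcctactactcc
*Fosb* promoter, chr7:19310046-19310295, - strand: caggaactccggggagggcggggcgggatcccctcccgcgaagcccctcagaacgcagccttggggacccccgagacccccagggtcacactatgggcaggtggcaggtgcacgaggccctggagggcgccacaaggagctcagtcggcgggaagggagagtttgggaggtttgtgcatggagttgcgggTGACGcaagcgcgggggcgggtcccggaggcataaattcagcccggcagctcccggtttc
*Batf* promoter, chr12:85686470-85686719, + strand: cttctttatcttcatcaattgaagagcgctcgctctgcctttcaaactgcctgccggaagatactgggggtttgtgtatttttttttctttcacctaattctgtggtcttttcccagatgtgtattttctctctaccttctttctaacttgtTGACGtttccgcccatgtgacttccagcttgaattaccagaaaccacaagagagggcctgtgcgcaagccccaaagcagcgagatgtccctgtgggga
The motifs searched on both strands were the AP-1 site TGANTCA, the CRE TGACGTCA and the CArG box, named for serum response factor. Of the 9 members with a promoter in the table, 0 held any of these, against 6.75%, 1.55% and 1.47% of 32851 mouse promoters of the same length. Sites outside these 250 bases were not searched, so the absence holds for the window only. For *Jund* the window ended at 70697738, upstream of the gene start of 70698949 given below. TGACG and TGACNTCA were added after the sequences were seen. TGACG was found in 5 of 9 members (*Junb*, *Fos*, *Fosb*, *Batf* and *Atf3*) and in 17.8% of all promoters, and every CRE also contains it. The match to TGACNTCA was in *Jun* only, at bases -45 to -38, against 7.49% of all promoters. In *Fos*, the 2 copies of TGACG lay at -129 to -125 and -66 to -62. A match is a run of letters, and RNA counts do not show whether a factor binds there.

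Among the members, 2 pairs are neighbours on a chromosome. On chromosome 1, *Batf3* (191097847 to 191108945, plus strand) is 61350 bases from *Atf3* (191170296 to 191218039, minus strand), with 1 protein-coding gene between. On chromosome 12, *Fos* (85473890 to 85477273, plus strand) is 209395 bases from *Batf* (85686669 to 85709087, plus strand), also with 1 protein-coding gene between. *Batf3* and *Atf3* were both lowest in Naive. *Fos* and *Batf* had opposite orders in Th17, where *Fos* was lowest and *Batf* highest.

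*Jun* encodes c-Jun, a strong activator that pairs with Fos and Batf proteins. It lies on chromosome 4 from 95049034 to 95052222 on the minus strand and has 1 exon. Naive replicates 1 and 2 had 117 and 238 CPM of *Jun*, Th17 replicates 54.0 and 35.1 CPM, and Th1 replicates 793 and 1478 CPM. Both Th1 libraries lay above all others, both Th17 libraries below all others, and no groups overlapped. In Th1 *Jun* rose by a log2 fold change of 2.68 (SE 0.45, adjusted p = 0.00355, edgeR) over Naive, and it was higher than in Th17 by 4.67 (SE 0.50, adjusted p = 0.000486). In Th17 compared with Naive the value was -1.99 (SE 0.44, adjusted p = 0.0163), which did not pass the threshold of 0.01. *Jun* stood at rank 123 of 13607 genes by mean CPM in Th1, 1041 in Naive and 4536 in Th17.

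The call of *Jun* in Th1 compared with Naive was lost without Naive replicate 1 (2.25, adjusted p = 0.0209), without Th1 replicate 2 (2.17, adjusted p = 0.013) and with library size alone as the scaling (2.40, adjusted p = 0.0103). The value in Th17 compared with Naive passed without Naive replicate 1 (-2.41, adjusted p = 0.00834) and with DESeq2 (-1.99, adjusted p = 0.000239). It was smaller without Naive replicate 2 (-1.40, adjusted p = 0.0691) and without Th17 replicate 2 (-1.72, adjusted p = 0.122).

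*Junb* and *Jund* encode the other Jun proteins, which can temper the activity of c-Jun. Both lie on chromosome 8, *Junb* from 84974484 to 84978718 (minus strand) and *Jund* from 70698949 to 70700616 (plus strand). *Junb* had 671 and 813 CPM in Naive, 603 and 473 CPM in Th17, and 795 and 1820 CPM in Th1. *Jund* had 770 and 957 CPM in Naive, 637 and 387 CPM in Th17, and 996 and 2584 CPM in Th1. Both genes were lowest in the Th17 libraries, and Th1 replicate 2 stood well above Th1 replicate 1. For Th1 compared with Th17, the log2 fold change of *Jund* was 1.81 (SE 0.46, adjusted p = 0.0284, edgeR) and that of *Junb* was 1.28 (SE 0.40, adjusted p = 0.0554), neither past the threshold. Their values in Th17 compared with Naive were -0.75 (SE 0.45) and -0.46 (SE 0.40), and in Th1 compared with Naive 1.05 (SE 0.46) and 0.82 (SE 0.40), with adjusted p between 0.152 and 0.439. These values moved with the Th1 replicates. In Th1 compared with Th17, *Jund* passed without Th1 replicate 1 (2.33, adjusted p = 0.00738) and with DESeq2 (1.82, adjusted p = 0.00126), but without Th1 replicate 2 it dropped to 0.97 (adjusted p = 0.188) and *Junb* to 0.57 (adjusted p = 0.386). Against Naive, leaving out Th1 replicate 2 gave 0.21 for *Jund* and 0.11 for *Junb*, and leaving out Th1 replicate 1 gave 1.62 and 1.34.

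Reads of some members may include those of a gene on the other strand. *Jun* shares 232 exonic bases with the antisense gene *Junos*, *Jund* shares 877 with *Gm11175*, and *Junb* shares 173 with *Prdx2*. *Fosl1* shares 1163 with *Ccdc85b*, which had between 39.0 and 65.5 CPM in the libraries. The libraries were made from Smart-seq2 cDNA, and the sources differ on the strand setting used in counting, so such reads cannot be told apart. *Prdx2*, a peroxiredoxin, had 281 and 107 CPM in Naive, 236 and 412 CPM in Th17, and 145 and 170 CPM in Th1. The part of these overlapping genes in the counts of *Jun*, *Junb* and *Jund* was not tested.

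**Figure D1:**
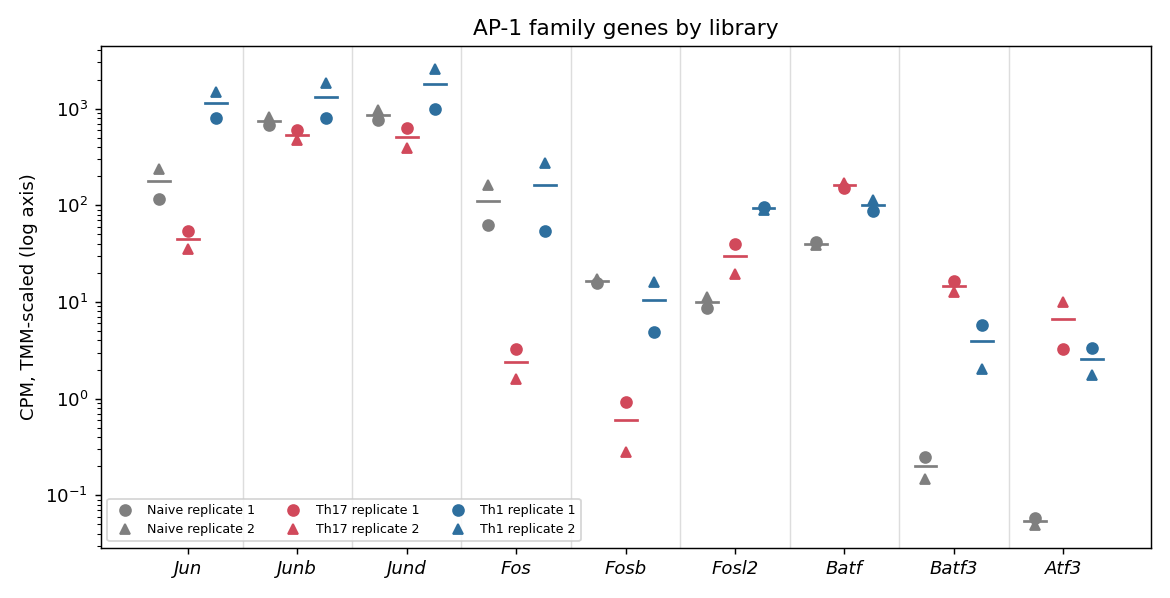
CPM on a log axis for the 9 AP-1 family genes tested, with circles for replicate 1, triangles for replicate 2 and a bar at the mean of the 2 replicates; Naive is grey, Th17 red and Th1 blue. *Fos* and *Fosb* lie lowest in Th17, *Jun* highest in Th1, and *Batf3* and *Atf3* lowest in Naive.

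*Fos* encodes c-Fos, the classical partner of c-Jun. Its level was 62.8 and 160 CPM in Naive, 3.23 and 1.58 CPM in Th17, and 54.7 and 272 CPM in Th1. The Th17 values rest on 211 and 28 counts, and each is far below every other library. *Fos* fell by a log2 fold change of -5.47 (SE 0.81, adjusted p = 0.00213, edgeR) in Th17 compared with Naive, and it was higher in Th1 than in Th17 by 6.02 (SE 0.83, adjusted p = 0.00163). The Th1 and Naive libraries overlapped, with a log2 fold change of 0.55 (SE 0.66, adjusted p = 0.634).

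Within replicates, the log2 difference of *Fos* between Th1 and Naive was -0.20 for replicate 1 and 0.76 for replicate 2, and without Th1 replicate 2 its fold change turned to -1.02. The fall in Th17 lost its call without Th17 replicate 1 (-6.13, adjusted p = 0.0149, edgeR) or without Th17 replicate 2 (-5.11, adjusted p = 0.0104), and the difference between Th1 and Th17 without Th17 replicate 1 (6.68, adjusted p = 0.0128).

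*Fosb*, on chromosome 7 from 19302696 to 19310051, encodes a close relative of c-Fos. It had 15.7 and 17.4 CPM in Naive, 0.933 and 0.283 CPM in Th17, and 4.86 and 16.1 CPM in Th1. The Th17 libraries held 61 and 5 counts of it and were the lowest, while Th1 replicate 1 lay between Th17 and Naive. *Fosb* fell in Th17 compared with Naive by a log2 fold change of -4.62 (SE 0.69, adjusted p = 0.00231, edgeR). It was higher in Th1 than in Th17 by 3.94 (SE 0.68, adjusted p = 0.00494), and Th1 compared with Naive gave -0.68 (SE 0.58, adjusted p = 0.493). That last value rested on which Th1 library was used, with -1.76 (adjusted p = 0.0939) without Th1 replicate 2 and -0.00253 without Th1 replicate 1. The call against Naive was lost without Th17 replicate 2 (-4.15, adjusted p = 0.0104). The call against Th17 was lost without Th17 replicate 1 (5.17, adjusted p = 0.0157), without Th17 replicate 2 (3.48, adjusted p = 0.0261), without Th1 replicate 2 (2.86, adjusted p = 0.0132) and with library size alone (3.67, adjusted p = 0.0114).

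*Fosl2* encodes Fra-2, a Fos protein without the strong activation domain of c-Fos, and it moved otherwise. On chromosome 5 from 32135801 to 32157842, *Fosl2* had 8.63 and 11.4 CPM in Naive, 40.1 and 19.6 CPM in Th17, and 95.5 and 90.2 CPM in Th1. No groups overlapped, and the order was Naive, Th17, Th1. *Fosl2* rose in Th1 over Naive by a log2 fold change of 3.22 (SE 0.38, adjusted p = 0.000559, edgeR). Neither the value of 1.59 in Th17 compared with Naive (SE 0.36, adjusted p = 0.0179) nor the 1.63 in Th1 compared with Th17 (SE 0.36, adjusted p = 0.0153) was past the threshold. Both passed with DESeq2 (adjusted p = 0.000827 and 0.000463), and the first also passed without Th17 replicate 2 (2.01, adjusted p = 0.00617). Without Th17 replicate 1 the first was 0.98 (adjusted p = 0.116), under the 2-fold change that a call requires. *Fosl1*, on chromosome 19 from 5447547 to 5455946, encodes Fra-1 and had between 0 and 15 counts in a library, at most 0.230 CPM.

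*Batf* encodes a small bZIP protein without a transactivation domain of its own, which works with Jun and Irf proteins at composite sites. *Batf* had 41.6 and 38.8 CPM in Naive, 150 and 171 CPM in Th17, and 86.3 and 113 CPM in Th1. The replicates lay close together and no groups overlapped. *Batf* rose in Th17 over Naive by a log2 fold change of 2.00 (SE 0.27, adjusted p = 0.00126, edgeR) and in Th1 by 1.31 (SE 0.26, adjusted p = 0.00792). Between Th1 and Th17 the value was -0.69 (SE 0.26, adjusted p = 0.0926), and the difference between the 2 cultured cell types did not pass the test. The call in Th17 held in each fit that left out a library. The call in Th1 was lost in all 6 of them, with adjusted p between 0.0125 (without Th17 replicate 2) and 0.0539 (without Th1 replicate 2) and log2 fold changes of 1.11 to 1.53, with library size alone (1.05, adjusted p = 0.0208) and in a fit of the 4 libraries compared (adjusted p = 0.0176).

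*Batf3*, best known for its role in the development of conventional dendritic cells, was at the limit of detection in Naive replicate 2. It had 0.250 and 0.149 CPM in Naive (17 and 3 counts), 16.3 and 12.6 CPM in Th17, and 5.83 and 2.02 CPM in Th1. Every cultured library was far above Naive, and both Th17 libraries were above both Th1 libraries. Over Naive, *Batf3* rose by 6.06 on the log2 scale in Th17 (SE 0.66, adjusted p = 0.00052, edgeR) and by 4.21 in Th1 (SE 0.63, adjusted p = 0.002). Th1 compared with Th17 gave -1.85 (SE 0.52, adjusted p = 0.0393), which was not past the threshold. It passed with DESeq2 (-1.86, adjusted p = 0.00612) and, by edgeR, with no filter on low counts (-1.83, adjusted p = 0.0015), and it lay between -1.30 (without Th1 replicate 2) and -2.84 (without Th1 replicate 1) when 1 library was left out. Without Naive replicate 1, the rise in Th1 was 4.73 with an adjusted p of 0.0118.

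*Atf3*, a stress-induced factor that pairs with Jun proteins, had 4 counts in Naive replicate 1 and 1 count in Naive replicate 2. Its levels were 0.0587 and 0.0495 CPM in Naive, 3.23 and 9.96 CPM in Th17, and 3.33 and 1.77 CPM in Th1. The cultured libraries were all above Naive, and Th17 and Th1 overlapped. Over Naive, *Atf3* rose by 6.79 on the log2 scale in Th17 (SE 0.86, adjusted p = 0.000928, edgeR) and by 5.46 in Th1 (SE 0.84, adjusted p = 0.00229), sizes that depend on 5 Naive reads. Th1 compared with Th17 gave -1.33 (SE 0.60, adjusted p = 0.152). Without Naive replicate 1, the rise in Th1 was 5.61 with an adjusted p of 0.0219.

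*Batf3* and *Atf3* are also expressed by myeloid cells, several of whose markers were high in Th17. No sort of the cultures is described, and fewer cells of a type and less RNA per cell cannot be told apart in such bulk libraries. Of 10 neutrophil markers, 8 were called higher in Th17 than in Naive and 1 lower (*Mpo*, -1.69). All 10 summed to 311 and 189 CPM in Naive, 3013 and 2872 CPM in Th17, and 64.5 and 75.9 CPM in Th1. The Naive sum was mostly *Mpo*, with 251 and 159 CPM. Of 7 macrophage markers in the files, 3 were called higher, and they summed to 40.9 and 22.4 CPM in Naive, 291 and 868 CPM in Th17, and 15.8 and 22.3 CPM in Th1. In Th17 the macrophage sum rested mostly on *Lyz2*, with 223 and 762 CPM, while *C1qa* and *C1qb* reached at most 6.22 CPM. Of 6 mast cell and basophil markers, 3 were called higher and 0 lower in Th17 than in Naive by edgeR. All 6 summed to 123 and 39.8 CPM in Naive, 139 and 324 CPM in Th17, and 65.4 and 44.8 CPM in Th1. *Kit*, in the same list, was called lower in Th17 than in Naive by DESeq2 and not by edgeR (-2.42, adjusted p = 0.0108). Of 6 dendritic cell markers, 5 were tested and 0 were called by edgeR in Th17 compared with Naive, where 4 had an unadjusted p under 0.05 and DESeq2 called *Itgax* and *Xcr1* higher. They summed to at most 30.1 CPM in any library. *Lyz2* and *Atf3* were both higher in Th17 replicate 2 than in replicate 1, and *Batf3* was higher in replicate 1. The part of other cell types in the levels of *Batf3* and *Atf3* was not tested. In Th1 compared with Naive, where *Batf3* and *Atf3* were also called higher, 6 of 10 neutrophil markers were called higher and 2 lower, and 0 of 7 macrophage markers were called higher and 1 lower. *S100a8* and *S100a9*, the neutrophil markers highest in Th17, had between 5.75 and 6.78 CPM in Th1. *Cxcr2*, a chemokine receptor in the same list, went the other way, with 0.602 and 0.149 CPM in Naive, 12.8 and 8.03 CPM in Th17, and 36.2 and 34.9 CPM in Th1. It was called higher in Th1 than in Th17 by DESeq2 and not by edgeR (1.76, adjusted p = 0.0273).

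Counted together, 3 members were called higher and 2 lower in Th17 compared with Naive (adjusted p under 0.01 with a change of more than 2-fold). The background over all 13607 genes was 4.01% called higher and 1.43% called lower. The split depended on the Th17 libraries, with 4 members higher and 0 lower without Th17 replicate 2 and 3 higher and 1 lower without Th17 replicate 1. All genes called lower went from 194 to 46 and 28 in these fits. DESeq2 called 4 members higher and 3 lower. All 9 members tested had libraries that did not overlap between Th17 and Naive, against 65.5% of all genes. The median log2 fold change of the members was -0.46, against -0.02 over all genes. *Batf3* (17 and 3 counts in Naive) and *Atf3* (4 and 1 counts) passed the filter on low counts only through the cultured libraries. Their calls and lack of overlap against Naive, in Th17 here and in Th1 below, are therefore not independent of that filter. The shares of all genes are no test of them.

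In Th1 compared with Naive, 5 members were called higher and 0 lower, against 4.64% and 2.81% of all genes. The libraries of 6 of 9 did not overlap, all of them higher in Th1, against 56.0% of all genes, and the median was 1.31 against -0.02. DESeq2 called 0 lower as well, and 6 members had an unadjusted p under 0.05. Without Naive replicate 1, 1 member was called, and without Th1 replicate 2, 3 were called. In Th1 compared with Th17, 3 members were called higher and 0 lower, against 2.70% and 2.83% of all genes. By DESeq2, *Batf3* was called lower, and 8 members had an unadjusted p under 0.05 (edgeR). With library size alone, the split of all genes called moved from 367 higher and 385 lower to 202 and 352. The libraries of 8 of 9 did not overlap (6 higher, 2 lower in Th1), against 66.6%, and the median was 1.63 against -0.03. Without Th17 replicate 1, 1 member was called. The comparisons share libraries, so their counts are not independent of each other.

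**Figure D2:**
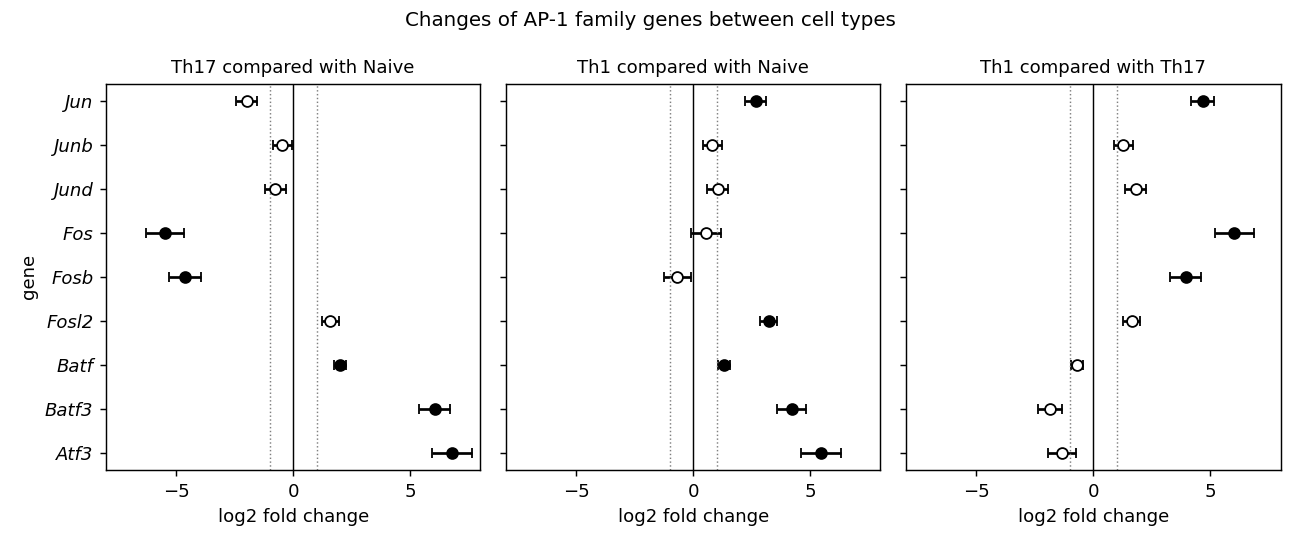
Log2 fold change of each AP-1 family gene in the 3 comparisons (edgeR), with bars of 1 standard error; filled points were called and dotted lines stand at a log2 fold change of 1 in either direction. *Fos* and *Fosb* lie at -5.47 and -4.62 in Th17 compared with Naive, and at 0.55 and -0.68, neither of them called, in Th1 compared with Naive.

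Levels of different genes were compared as CPM per kilobase of exon. *Jund* and *Junb* led in all 3 cell types. Their means were 518 and 322 CPM per kilobase in Naive, 307 and 234 CPM per kilobase in Th17, and 1073 and 568 CPM per kilobase in Th1. With all exons as the length, *Jund* exceeded *Junb* within each of the 6 libraries. That order depends on the length used, since the exons of *Junb* cover 2301 bases and its longest transcript 1809. *Jund* has 1668 by either measure in the annotation used. Its RefSeq start lies upstream of the start used here, so its length may also differ. In plain CPM, *Junb* exceeded *Jund* in Th17 replicate 2 (473 against 387). In Naive the ranges of the 2 genes did not overlap between libraries, and in Th17 and Th1 they did. Next in Naive came *Jun* (55.6 CPM per kilobase), *Fos* (47.4) and *Batf* (28.6), whose neighbours in this order overlapped, followed by *Fosb*, *Fosl2*, *Batf3*, *Fosl1* and *Atf3*, none of which overlapped its neighbour. In Naive replicate 2, *Batf3*, *Fosl1* and *Atf3* had 3, 2 and 1 counts. These are at or under the limit of detection, so the order among *Batf3*, *Fosl1* and *Atf3* in Naive is not established.

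In Th17, *Batf* came next after these 2 with 114 CPM per kilobase, below *Junb* and above *Jun* (14.0) in both libraries. *Batf3* (9.07) followed, then *Fosl2* (3.09) and *Atf3* (3.06), which overlapped, then *Fos* (1.02), and last *Fosb* and *Fosl1*, which overlapped. In Th1, *Jun* came next with 356 CPM per kilobase and overlapped *Junb*. *Batf* (70.9) and *Fos* (69.5) overlapped, *Fosl2* (9.59) was below both, *Batf3*, *Fosb* and *Atf3* followed and overlapped in turn, and *Fosl1* was last.

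As a share of the family total per kilobase, the 3 Jun genes made up 92.9% and 90.9% in the Naive libraries, 84.2% and 76.6% for the Th17 libraries, and 92.2% and 93.0% in Th1. The 2 Batf genes made up 3.50% and 2.52% in Naive, 14.9% and 22.1% for the Th17 libraries, and 5.04% and 2.71% in Th1. The Th17 libraries stood apart in both shares. The 4 Fos genes made up 3.55% and 6.56% in Naive, 0.736% and 0.469% for the Th17 libraries, and 2.63% and 4.23% in Th1.

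The make-up within each class differed as well. *Fos* was 88.4% and 94.4% of the Fos class in Naive and 68.6% and 90.6% in Th1, but 23.8% and 24.5% in Th17, where *Fosl2* was 71.7% and 73.8%. *Jun* was 4.64% and 7.45% of the Jun class in Naive, 2.56% and 2.46% for the Th17 libraries, and 20.9% and 16.5% in Th1. Shares given here are descriptions of 2 libraries each and were not tested.

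**Figure D3:**
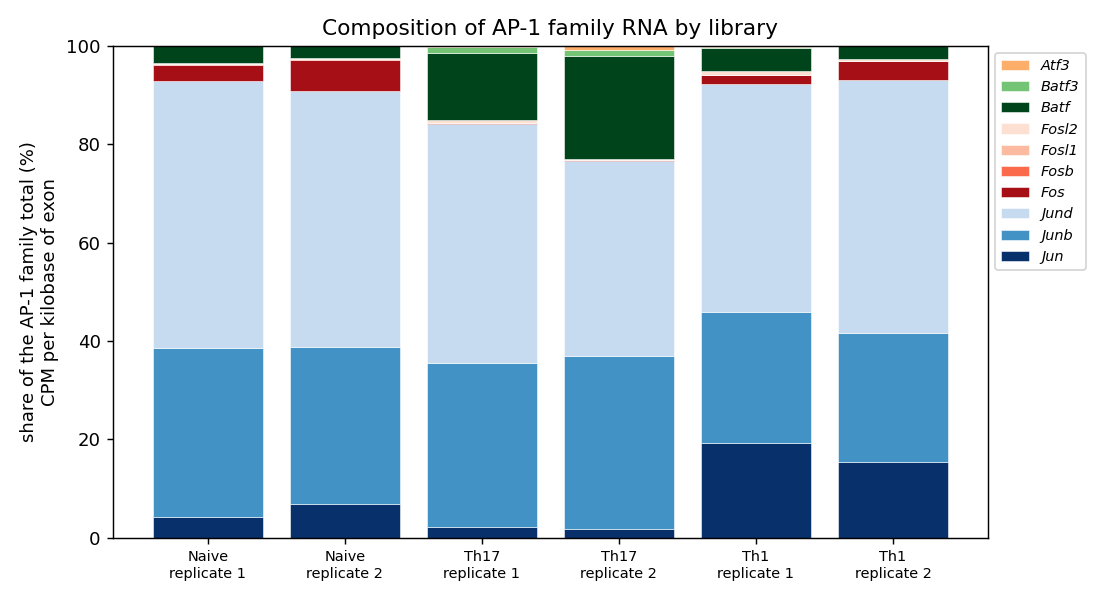
Share of each AP-1 family gene in the family total of CPM per kilobase of exon, in percent, one stacked bar per library. The Batf genes (green) take 14.9% and 22.1% in Th17 and the Jun genes (blue) at least 76.6% in every library, while *Jun* (darkest blue) is widest in Th1.

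Ratios of raw counts within a library do not depend on how the libraries were scaled, although gene length enters them, so they are compared only between libraries. For *Jun* against *Junb* it was 0.174 and 0.293 in Naive libraries, 0.0894 and 0.0742 in Th17 libraries, and 0.997 and 0.812 in Th1 libraries. For *Fos* against *Batf* it was 1.51 and 4.13 in Naive libraries, 0.0215 and 0.00925 in Th17 libraries, and 0.634 and 2.40 in Th1 libraries. In both ratios Th17 was lowest and did not overlap the other groups. For *Fosl2* against *Fos* it was 0.138 and 0.0710 in Naive, 12.4 in each Th17 library, and 1.75 and 0.331 in Th1. The 2 Th17 replicates were nearly equal in this ratio, while both genes were about 2 times higher in replicate 1.

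**Figure D4:**
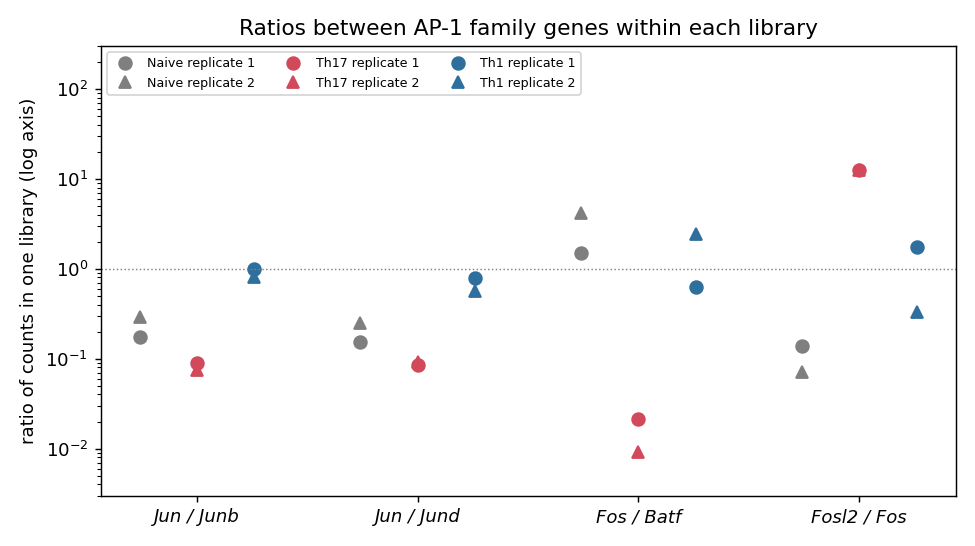
Ratio of the counts of 2 AP-1 family genes in the same library, on a log axis; circles are replicate 1 and triangles replicate 2, and the dotted line marks equal counts. For *Fos* against *Batf*, the Th17 libraries lie at 0.0215 and 0.00925 and the other 4 between 0.634 and 4.13.

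A common order of the replicates was seen in some members. *Jun*, *Junb*, *Jund*, *Fos* and *Fosb* were each higher in replicate 2 of Naive and of Th1 and lower in replicate 2 of Th17, 5 of 9 members against 16.4% of all genes tested. Of 10 other immediate early genes, 6 had the same order (*Egr1*, *Nr4a1*, *Ier2*, *Ier5*, *Dusp1* and *Zfp36*). For *Fos* the log2 difference of replicate 1 minus replicate 2 was -1.35 between the Naive libraries, 1.01 between the Th17 libraries and -2.31 between the Th1 libraries. This order was noticed after the values were seen and was not tested.

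Immediate early genes outside the family numbered 10. In Th17 compared with Naive, 3 were called lower and 1 higher. *Egr1*, a zinc finger factor induced through serum response factor, fell by a log2 fold change of -3.28 (SE 0.58, adjusted p = 0.00547, edgeR), with 76.8 and 107 CPM in Naive against 13.4 and 5.15 CPM in Th17. *Dusp1*, a phosphatase that switches MAP kinases off, fell by -2.47 (SE 0.42) and *Egr2* by -2.20 (SE 0.41), while *Ier3* rose by 2.72 (SE 0.40). The median of the list was -1.92.

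For Th1 compared with Naive, *Ier3* was called higher (2.44, SE 0.40) and *Egr2* (-2.29, SE 0.41) and *Egr3* (-3.47, SE 0.72) lower, with a median of 0.02. Between Th1 and Th17, *Egr1* (5.17, SE 0.63) and *Dusp1* (2.62, SE 0.42) were called higher in Th1 and 0 of 10 lower by edgeR or DESeq2, where 5 had an unadjusted p under 0.05, with a median of 1.04.

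Of 17 genes of the MAP kinase and serum response pathway, which lies upstream of *Fos* and *Jun*, 0 were called in Th17 compared with Naive by edgeR, with 4 at an unadjusted p under 0.05, and DESeq2 called *Srf* (lower). *Map2k6*, which activates p38 kinases, was called lower in Th1 than in Naive (-2.41, SE 0.40) and than in Th17 (-2.03, SE 0.40), the only call of the list in each of these comparisons by edgeR. It had 15.9 and 16.8 CPM in Naive, 9.84 and 15.2 CPM in Th17, and 2.43 and 3.79 CPM in Th1. In Th1 compared with Th17, DESeq2 also called *Mapk8* lower, which edgeR did not (-1.25, adjusted p = 0.0187). By edgeR, 3 genes of the list had an unadjusted p under 0.05 in Th1 compared with Naive and 6 in Th1 compared with Th17.

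Among 9 partner factors, the Irf proteins are those that bind with Batf. *Irf4* had 15.5 and 19.3 CPM in Naive, 66.3 and 56.2 CPM in Th17, and 96.9 and 35.7 CPM in Th1. Its log2 fold changes over Naive were 1.82 in Th17 (SE 0.43, adjusted p = 0.0199, edgeR) and 1.93 in Th1 (SE 0.43, adjusted p = 0.0133), neither past the threshold. *Irf8* had 58.8 and 37.5 CPM in Naive, 30.6 and 28.0 CPM in Th17, and 172 and 128 CPM in Th1, and it was called higher in Th1 than in Naive (1.64, SE 0.30) and than in Th17 (2.36, SE 0.31). *Irf8* was highest in the cell type where *Jun* was highest, and the highest *Irf4* library was Th1 replicate 1. *Nfatc1*, an NFAT factor that binds with AP-1, was called lower in Th17 than in Naive (-1.67, SE 0.33) and higher in Th1 than in Th17 (1.77, SE 0.33). The other 6 partners (*Nfatc2*, *Nfatc3*, *Stat3*, *Runx1*, *Ets1* and *Ikzf1*) were called in no comparison by edgeR. DESeq2 also called *Irf4* in Th17 and Th1 compared with Naive, and *Nfatc2* in Th1 compared with both.

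Of 22 related bZIP factors, 3 were called higher in Th17 than in Naive, 5 in Th1 than in Naive, and 0 were called lower in either by edgeR or DESeq2. In Th1 compared with Th17, both tools called 0, and 2 had an unadjusted p under 0.05. *Nfil3*, a repressor with roles in T helper cytokine expression, rose in Th17 (2.80, SE 0.33) and Th1 (3.30, SE 0.33). *Crem*, which binds CREs, rose by 2.18 (SE 0.31) and 2.39 (SE 0.31), and *Atf6*, a factor of the endoplasmic reticulum stress response, by 1.91 (SE 0.28) in Th17 and 1.44 in Th1. *Maff* (2.14, SE 0.41) was called higher in Th1. *Batf2*, the third Batf gene, had at most 0.464 CPM, and *Jdp2* had between 3.47 and 5.40 CPM, and neither was called.

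Cytokine and effector genes known as targets of NFAT and AP-1 changed in both directions. Of 8 tested, 4 were called higher and 1 lower in Th17 than in Naive, 3 higher and 0 lower in Th1 than in Naive, and 2 higher and 3 lower in Th1 than in Th17. *Fasl*, the death ligand, was the one that fell in Th17 (-2.14, SE 0.35), and it rose in Th1 (2.09, SE 0.34). *Ifng* rose in Th17 (3.64, SE 0.29) and in Th1 (5.19, SE 0.31). *Il4* was lower in Th1 than in Th17 (-2.71, SE 0.52). The other calls, named after their values were seen, were *Il2* and *Il13*, both higher in Th17 than in Naive and in Th1, and *Csf2*, higher in both cultured cell types than in Naive.

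Of 6 genes that depend on Batf in Th17 differentiation, 5 were called higher in Th17 than in Naive and 5 lower in Th1 than in Th17, all but *Rora*. These include the markers that identify the Th17 libraries. In Th1, where *Batf* was 2.48-fold above Naive, *Il21* alone of the 6 was called higher than in Naive (2.95, SE 0.33). *Il21* rose in Th17 by 4.59 (SE 0.36) and was called lower in Th1 than in Th17 (-1.64, SE 0.31).

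The genes whose pattern was most like that of a member were found by the root mean square difference of log2 CPM, centred on each gene's mean over the 6 libraries, among 8835 genes with a mean of at least 10 CPM. For *Jun* they were *Fbln1* (0.31), *Phlpp1* (0.38) and *Ly6c1* (0.51), where *Jun* itself spanned 5.39 on this scale. For *Fos* they were *D8Ertd82e* (0.71), *Egr1* (0.91) and *Eomes* (1.10), which are farther from it than the neighbours of *Jun*. For *Batf* they were *Gstt2* (0.12), *Emb* (0.16) and *Gngt2* (0.17), and for *Batf3* *Ltb4r1* (0.30), *Csf2rb2* (0.39) and *Tnfrsf8* (0.46). These likenesses rest on 6 libraries of 3 cell types and carry no test.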

How the data were processed

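RNA-Seq was done on 6 libraries, 2 for each cell type. Per the study's methods, the authors aligned reads to mm10 with Hisat2 (v2.2.1), removed duplicates and counted reads per gene with HTSeq (v0.13.5). The deposited values are these raw counts. The methods give default HTSeq parameters, and the supplementary code a reverse-stranded option. Tests were run with edgeR 4.0.16 and limma 3.58.1 under R 4.3.3. The filterByExpr function kept 13607 genes, TMM factors were 0.862 to 1.09, and 1 quasi-likelihood model with no term besides cell type covered all 6 libraries. A call required an adjusted p (Benjamini-Hochberg) under 0.01 with the log2 fold change beyond 1 in either direction. The standard error is the log2 fold change over the square root of F. Log2 CPM used a prior count of 2. DESeq2 1.42.0 was an alternative. The fits were checked on simulated data.

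Exon lengths and positions were from GENCODE vM21 (GRCm38), and promoters from RefSeq (GRCm38.p6), which held 9 of 10 members. The members and gene lists were chosen with earlier results of these data known. Named from each list were the called genes, at most 4 by absolute log2 fold change with more than 3 counts in every library, with *Batf2*, *Jdp2*, *Irf4* and *Irf8* whatever their values. Single marker genes, and genes called by DESeq2 alone, were named after their values were seen. Lists were described by counts and medians. Sequenced reads are not independent molecules, so depth and the limit of detection cover counting error only. Some genes that meet this rule are not reported here.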

Additional observations from a re-analysis of the deposited data

Results flagged for a closer look

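For 3 members the change from Naive differed between Th1 and Th17, as tested by the comparison of Th1 with Th17 (edgeR, adjusted p under 0.01). Both changes use the same Naive libraries, which cancel in this difference. The change of *Jun* was greater in Th1 by 4.67 on the log2 scale, that of *Fos* by 6.02 and that of *Fosb* by 3.94. In each case both Th1 libraries lay above both Th17 libraries. Neutrophil markers summed to 3013 and 2872 CPM in Th17 and to 64.5 and 75.9 CPM in Th1, and their part in these differences was not tested.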

How the results depend on the processing

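No member changed direction under another test, scaling or filter, and *Fos* in Th1 compared with Naive, which was not called, turned to -1.02 without Th1 replicate 2 and ranged up to 1.38 when other libraries were left out. With at least 10 counts in every library, 6 members were left, of which 2 were called in Th17 compared with Naive and 3 in Th1 compared with Naive. These lower numbers follow from the filter, which removed *Fosb*, *Batf3* and *Atf3*. The members left that were called in these 2 comparisons kept their calls. Library size alone, which shifted the median of all genes by -0.25 in Th1 compared with Naive and -0.21 in Th1 compared with Th17, left 3 calls in Th1 compared with Naive. In Th1 compared with Th17, DESeq2 called 6 members, no filter 7 and an adjusted p under 0.05 gave 6. Leaving out each library gave 4 to 6 calls in Th17 compared with Naive, 1 to 4 in Th1 compared with Naive and 1 to 4 in Th1 compared with Th17. Replicate numbers were not shown to pair the libraries, with correlations of deviations of -0.231, 0.168 and 0.0766 between cell types. With the replicate block, edgeR called 5 and DESeq2 6 members in Th1 compared with Th17. The block in edgeR added the calls of *Fosl2* (1.67, adjusted p = 0.0065) and *Batf3* (-2.02, adjusted p = 0.00877) in that comparison and of *Jun* in Th17 compared with Naive (-1.87, adjusted p = 0.0077). The calls over all genes moved likewise: 739, 1014 and 752 genes were called in the 3 comparisons in the order above, against 1717, 1917 and 1797 by DESeq2, 2154, 2259 and 2232 with no filter, 2063, 2164 and 2112 at an adjusted p under 0.05, 1515, 1799 and 1630 by DESeq2 with the replicate block, and 343, 674 and 411 with at least 10 counts in every library. Leaving out Th17 replicate 1 left 319 in Th17 compared with Naive and 286 in Th1 compared with Th17, and leaving out Naive replicate 1 left 516 in Th1 compared with Naive. The cause of these differences was not tested. Of the 30 shares per kilobase, 12 moved by more than 1 SD with the longest transcript as the length. Depth limits *Fosl1*, *Batf2* and the Naive levels of *Batf3* and *Atf3*. The part of the overlap with *Ccdc85b* in the low counts of *Fosl1* was not tested.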
